A study of Mus musculus with 36 samples.

Results

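The wild-type H3K27ac landscape of the mouse forelimb was described from 4 chromatin immunoprecipitation (ChIP-seq) peak lists, out of 18 H3K27ac samples and 36 samples in the series. Each list came from a library of pooled forelimbs of untreated wild-type FVB embryos at embryonic day 11.5, precipitated with an Active Motif antibody against H3K27ac. The other 14 H3K27ac samples are of knockout embryos, and they and the 18 input samples were not used. The members are the intervals covered by a peak in all 4 wild-type lists, called shared intervals. There were 26921 of them, and they covered 52.8 Mb, against 129.4 Mb covered by at least 1 list.

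H3K27ac is acetylation of lysine 27 of histone H3, a mark of active promoters and active enhancers. Most active elements carry it over a few nucleosomes, while genes with dense regulatory input can carry it over long, nearly unbroken stretches. At this stage the forelimb bud consists mainly of mesenchyme under a cover of ectoderm, and its skeleton is being laid out along the proximal-distal and anterior-posterior axes. A whole-tissue library averages the mark over all of these cells, so fewer cells with the mark and less mark per cell cannot be told apart. Positions are given in the mm9 build, counted from 1. A peak list holds no gene names, and an mm9 annotation was not used here, so regions are named by position and the tissue's marker genes were not examined.

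The widest shared interval lay on chromosome 6 from 52165436 to 52218931 and measured 53496 bp. Its peak was 53.7 kb, 54.0 kb, 53.8 kb and 54.3 kb wide in replicates 1 to 4, and it was the widest peak of every list. All 4 lists drew it as 1 peak with a score of 3100. The runner-up, on chromosome 2 from 74506325 to 74539362, was 33038 bp wide, with peaks of 36.0, 36.5, 33.0 and 33.4 kb. It belonged to a stretch of 54.2 kb, from 74486222 to 74540386, that held 5 shared intervals and 45.1 kb of shared bases. These 2 intervals thus lay in stretches of different texture: 1 unbroken peak in each list on chromosome 6, and 3, 3, 5 and 4 peaks on chromosome 2.

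Chromosome 1 held 3 of the 8 widest intervals within a single neighbourhood. They ran from 163903426 to 163923477 (20052 bp), from 163928547 to 163957056 (28510 bp) and from 164135452 to 164156918 (21467 bp). The first and second were parts of the same merged region of 56.1 kb, of which 49.4 kb was shared. As a merged region it was longer than the 54.4 kb on chromosome 6 and the 54.2 kb on chromosome 2. Peaks at the widest of the 3 measured 30.1, 29.1, 31.0 and 30.8 kb, a narrow range over the lists. At the last of them the widths were 21.8, 27.2, 23.1 and 21.7 kb, with replicate 2 the widest. When shared intervals no more than 20 kb apart were joined, these 3 fell in the longest group of the genome, from 163891998 to 164267099. That group spanned 375.1 kb, held 46 intervals and was covered over 53.6% of its length.

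Other wide intervals varied in how steadily the lists drew them. On chromosome 5, from 120276038 to 120298533, the peak was 23.0, 23.1, 22.6 and 23.0 kb wide. On chromosome 3, from 66773528 to 66790833, it was 17.3, 17.6, 17.5 and 17.6 kb wide. These 2 regions were drawn almost alike by every list. On chromosome 7, from 149717157 to 149743838, the widths were 35.8, 48.3, 26.8 and 35.4 kb, so the boundaries there depended on the list. The interval on chromosome 13 from 23834511 to 23857544 had peaks of 28.7, 23.3, 23.1 and 29.4 kb, because replicates 2 and 3 each divided a stretch that replicates 1 and 4 drew as a single peak. On chromosome 15, from 27706198 to 27720934, replicate 4 had a peak of 25.9 kb, while the others had 15.0, 15.0 and 16.0 kb.

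**Figure D1:**
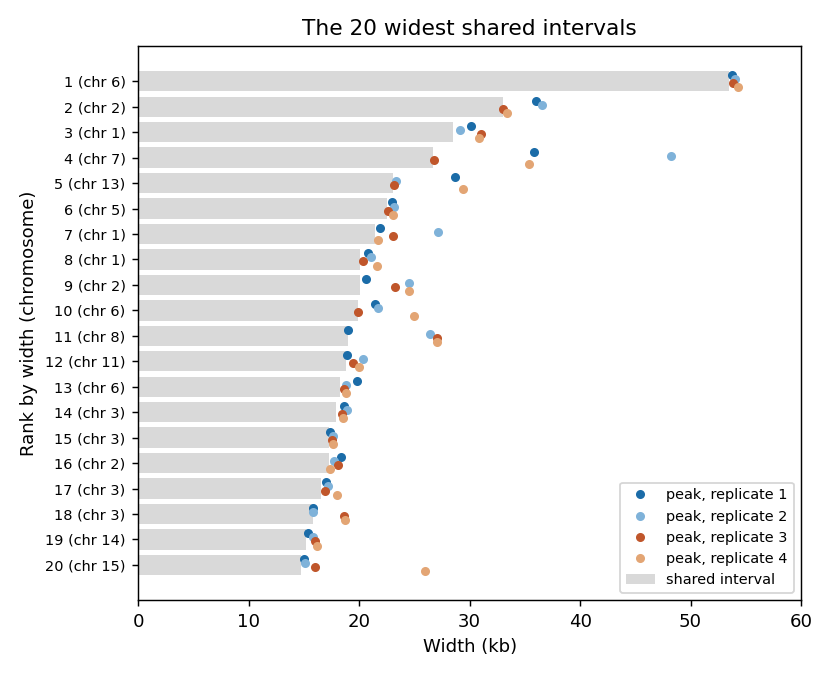
Widths in kb of the 20 widest shared intervals (bars) and of the peak that contains each one in wild-type replicates 1 to 4 (points), ordered by rank with the chromosome in parentheses. The chromosome 6 interval of 53.5 kb stands apart from the next, of 33.0 kb. The points lie close together for most ranks, farthest apart at ranks 4, 11 and 20, and less far apart at ranks 5, 7 and 10.

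In all, 78 shared intervals were at least 10 kb wide, on 20 chromosomes. The count depends on how an interval is drawn: it was 147 with neighbours within 1 kb joined and 328 with merged regions that had a peak of every list. They were 0.290% of the intervals and 2.11% of the shared bases, and 9 of them reached 20 kb. Peak widths in every list lay within 10% of each other at 32 of the 78, while at 8 the widest list exceeded the narrowest by more than 1.5 times. At 55 of the 78 every list gave a score of 3100 or more. Only 2 had a mean score percentile under 95, of which the lower was on chromosome 2 from 33482441 to 33502477. There the percentile was 97.8, 98.2, 84.6 and 97.0 in replicates 1 to 4, so replicate 3 alone was low, although its peak was 23.2 kb wide, between the 20.6 kb and 24.5 kb of the others. Of the 78, 65 (83.3%) had another shared interval within 10 kb, against 51.6% of all shared intervals. For 26 of the 78 the neighbour lay within 1 kb, and some neighbours were pieces of the same peak. On chromosome 13 from 23834511 it was a piece of 70 bp, 43 bp away, in the same peak of replicates 1, 3 and 4. The contrast thus does not count separate elements only. No other shared interval lay within 50 kb for 3 of the 78 (3.85%), against 15.4% of all. Those 3 were on chromosome 12 from 34640831 to 34654486, chromosome 11 from 23972699 to 23983985 and chromosome 5 from 75543361 to 75553405.

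The score used here is the authors' value for each peak, as the peak caller gave it. It was converted to a percentile within its list, from 0 for the weakest to 100 for the strongest, and the percentile of an interval is the mean over the 4 lists. Scores ran from 40 to 3233.06 in each list, and many peaks shared a single value. The maximum of 3233.06 equals minus 10 log10 of the smallest number that double-precision arithmetic can hold. Whether that numerical limit shaped the highest scores was not tested. A score of exactly 3100 was held by 567, 556, 398 and 668 peaks in replicates 1 to 4, and only 36, 59, 23 and 41 peaks scored higher. The median peak at 3100 was 5620, 6296, 6473 and 6543 bp wide, wider in every list than the median above 3100 of 4566, 4897, 5181 and 5119 bp. The order among the strongest peaks therefore rested on few values, and 340 intervals tied at 3100 in all 4 lists, at a mean percentile of 99.2 and a median width of 6030 bp.

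By mean percentile, 36 intervals with a median width of 4944 bp stood above that tie, of which 25 scored 3100 or more in every list. This order reverses with the handling of the tie: with scores of exactly 3100 ranked highest, the tied intervals stood at percentile 99.3 and all 36 fell below them, at 98.6 to 99.2. The first of the 36 was on chromosome 8 from 59790163 to 59809145, with scores of 3100, 3220, 3230 and 3100 and a mean percentile of 99.6. It was also the eleventh widest, at 18983 bp, and it opened a merged region of 39.96 kb that held 6 shared intervals. Next came chromosome 7 from 80738277 to 80742898, 4622 bp wide, with scores of 3100, 3205, 3227 and 3100. An interval of 3115 bp on chromosome 6, from 122759676 to 122762790, came after it, with scores of 3100, 3206, 2891 and 3213. The fifth, on chromosome 8 from 38014110 to 38017363, was 3254 bp wide and lay 183.1 kb from the nearest shared interval. The 36 thus ranged from a long stretch with many neighbours to short intervals far from others, but their rank over the tied intervals depends on the few scores above 3100.

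Across all shared intervals the median width was 1679 bp, with quartiles of 1248 and 2336 bp and a range of 1 to 53496 bp. Only 697 intervals (2.59%) reached 5 kb, and they held 9.63% of the shared bases. The widest 10% of intervals held 24.2%. At the other end 560 intervals were under 200 bp, and they held 0.0868% of the bases. In 22276 intervals (82.7%) each list contributed a peak with no other shared interval. Within these the start positions of the 4 peaks spanned a median of 380 bp and the ends 387 bp.

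From 500 bp upwards, wider intervals had higher scores. The median percentile was 35.0 for widths of 500 to 1000 bp, 56.7 for 1 to 2 kb, 81.9 for 2 to 3 kb, 93.0 for 3 to 5 kb and 98.1 for 5 to 10 kb. From 10 kb it was 99.2, the value of the tie at 3100. The 1001 intervals under 500 bp went against this order, with a median percentile of 55.2. Over all intervals the Spearman correlation of width with percentile was 0.825, and it was 0.812 among those under 5 kb. This is a description over neighbouring regions of the same libraries, which are not independent, and an interval takes the score of the whole peak it lies in. The strongest 1% with its ties was 376 intervals, of which 38.6% were among the widest 1%. The widest 1% was only 269 intervals, so not all of the 376 could be among them.

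**Figure D2:**
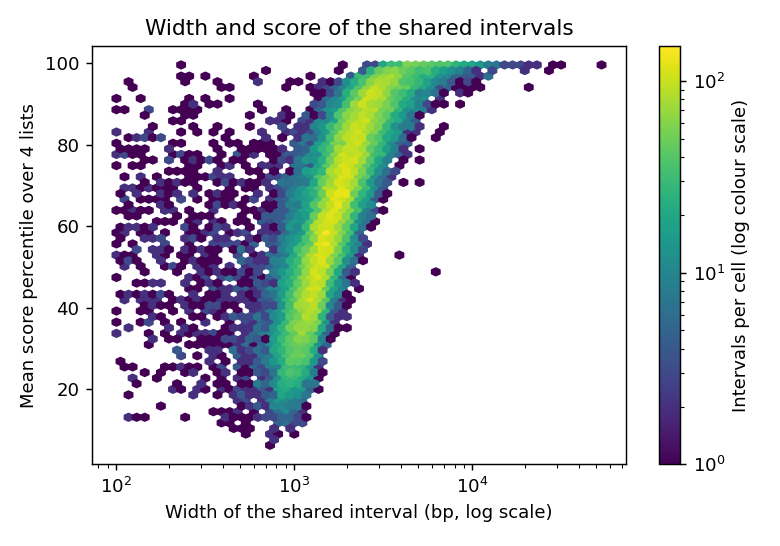
Mean score percentile over the 4 lists against interval width in bp (log scale) for shared intervals of at least 100 bp, with the number of intervals per cell as colour on a log scale. From 500 bp the cloud climbs from a median percentile of 35.0 at 500 to 1000 bp to 98.1 at 5 to 10 kb and flattens at the tie near 99.2, while all intervals under 500 bp, including those too narrow to be plotted, have a median of 55.2.

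Some intervals departed from that relation. Strong but compact ones, taken where each list contributed a peak with no other shared interval (a condition added after the values were seen), were led by chromosome 13 from 55290567 to 55292563. It was 1997 bp wide with scores of 1983, 1461, 1536 and 2190, at percentiles of 96.5, 94.7, 96.4 and 97.2. On chromosome 8, from 71918686 to 71920527, an interval of 1842 bp had a mean percentile of 95.5 and lay 122.6 kb from its nearest neighbour. Without that condition, 4 of the 5 strongest intervals under 2 kb were pieces of 227, 70, 1 and 85 bp cut from wide peaks. The widest interval with a mean percentile under 50 was on chromosome X from 166407808 to 166414336. It measured 6529 bp, and its scores of 85.6, 52.2, 157 and 502 placed it at percentiles of 36.6, 13.6, 59.8 and 83.2. Its peaks were 7400, 7084, 6529 and 7072 bp wide, so the lists drew the same long region at scores far apart.

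The lists differed in size and in their number of peaks at a score of exactly 3100, which was 398 to 668. They held 36281, 37929, 38824 and 44647 peaks over 75.8, 86.0, 81.4 and 101.7 Mb, with replicate 4 the largest by both measures. The median peak width was 1764, 1910, 1749 and 1894 bp. Peaks that met a shared interval made up 70.4%, 66.0%, 65.9% and 55.9% of the lists (64.5% ± 6.13, SD, n = 4). Those peaks had a median percentile of 64.3, 66.8, 66.9 and 71.8, against 20.1, 21.1, 21.3 and 24.8 for the rest. They were also wider in every list, with medians of 2093, 2290, 2136 and 2423 bp against 1243, 1385, 1284 and 1450 bp. Shared peaks were thus stronger and wider at the median in each list, though 789, 579, 600 and 338 of them stood under percentile 10. A wide peak can meet peaks of the other lists more easily than a narrow one, and this was not separated from the contrast.

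Each list was divided by score into 10 classes of equal size, and the share of shared peaks rose from class 1, the weakest, to class 10. In class 1 a mean of 15.0% was shared (7.56% to 21.7% over the 4 lists). By class 5 the mean was 61.5% (45.1% to 71.1%), and by class 7 it was 91.9% (84.2% to 94.9%). It reached 99.8% in class 9 and 99.99% in class 10. Over the 4 lists, 1 peak of class 10 was not shared. It was in replicate 1, on chromosome 5 from 89103689 to 89105918, 2230 bp wide with a score of 1108, and replicate 4 had no peak over it.

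**Figure D3:**
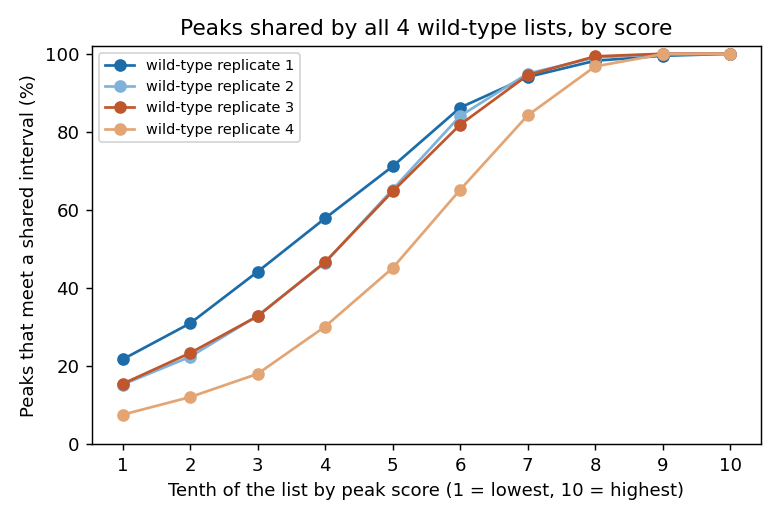
Percentage of peaks that meet a shared interval, for 10 score classes of equal size (1 lowest, 10 highest), with 1 line per wild-type replicate. The 4 lines start between 7.56% and 21.7% and come together near 100% in the upper classes.

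Of the bases covered by at least 1 list, 40.8% were covered by all 4, 14.0% by 3, 16.2% by 2 and 29.0% by 1. Merging all peaks gave 55304 regions, of which 24234 had a peak of every list and 15912 a peak of 1 list only. Replicate 4 alone accounted for 6990 of those. The spread of the percentile over the lists was widest in the lower middle of the range. Its median SD was 5.76 at mean percentiles of 0 to 10 (9 intervals), 11.8 at 10 to 20, 16.1 at 30 to 40 and 1.399 at 90 to 100 (n = 4). A bounded scale itself limits the SD near 0 and 100. In 2767 intervals (10.3%) the percentile was above 90 in every list. In 2061 (7.66%) at least 1 list placed it under 10.

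The names of the lists carry 2 tags whose meaning is not given in the sources used here. Replicates 1 and 2 share the first and replicates 3 and 4 the second. Percentiles of the shared intervals correlated at a Spearman value of 0.818 for replicates 1 and 2 and 0.818 for replicates 3 and 4, and at 0.713 to 0.808 for pairs with different tags. Other measures did not separate the tags. Bases in common were 62.7% for replicates 1 and 2 and 60.9% for 3 and 4, against 57.2% to 62.7% with different tags. Peak widths correlated at 0.705 and 0.700 within the tags and at 0.630 to 0.715 across them. The median absolute percentile difference was 6.86 and 6.30 within the tags and 6.61 to 10.5 across them. The median absolute difference between the means of the tags was 7.27 percentile points, and it exceeded 30 points in 1560 intervals (5.79%). Percentiles are taken within lists of unequal length. Over the shared intervals their median was 65.2, 68.2, 67.7 and 73.2 in replicates 1 to 4. The median signed difference was 2.73 points, with the second tag higher. How much of the tag difference goes with list length was not tested. No test of the tags was run, since an exact permutation of 2 lists against 2 cannot reach a threshold of 0.05. The largest difference towards the second tag was on chromosome 10 from 67652660 to 67653949, at percentiles of 20.8, 9.43, 92.6 and 96.5. The peaks were 1398 and 1290 bp wide under the first tag and 5271 and 5435 bp under the second. In the other direction, on chromosome 11 from 77307239 to 77308203, the percentiles were 91.0, 94.7, 13.3 and 13.7 and the widths 4416, 5949, 987 and 1139 bp. At both places a wide strong peak under 1 tag overlapped a narrow weak one under the other. The nearest shared interval was only 139 bp away on chromosome 10 and 434 bp away on chromosome 11. Each interval took the score of the whole peak it lay in. Whether the narrow peaks were pieces of a region drawn as 1 peak under the other tag was not tested.

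Shared intervals were unevenly spread along the chromosomes. Autosomes carried 11.03 per Mb of the span between the first and last interval, from 8.61 on chromosome 1 to 16.8 on chromosome 11. Chromosome X carried 3.05 per Mb, so the autosomes were 3.61 times as dense. Peaks of the single lists were also sparser on chromosome X than on any autosome, with 4.16 ± 0.259 per Mb (SD, n = 4). Among the autosomes they ran from 13.3 ± 1.41 per Mb on chromosome 1 to 23.1 ± 1.56 on chromosome 11. On chromosome X the 490 intervals were 1656 bp wide at the median and stood at percentile 69.5, close to the 1679 bp and 66.6 of all intervals. They were fewer, with a median distance between neighbours of 57206 bp, but of ordinary size. Their median percentile was at the top of the range of the autosomes, 64.2 on chromosome 8 to 69.5 on chromosome 7. Chromosome Y had 2 shared intervals, of 989 and 1021 bp.

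**Figure D4:**
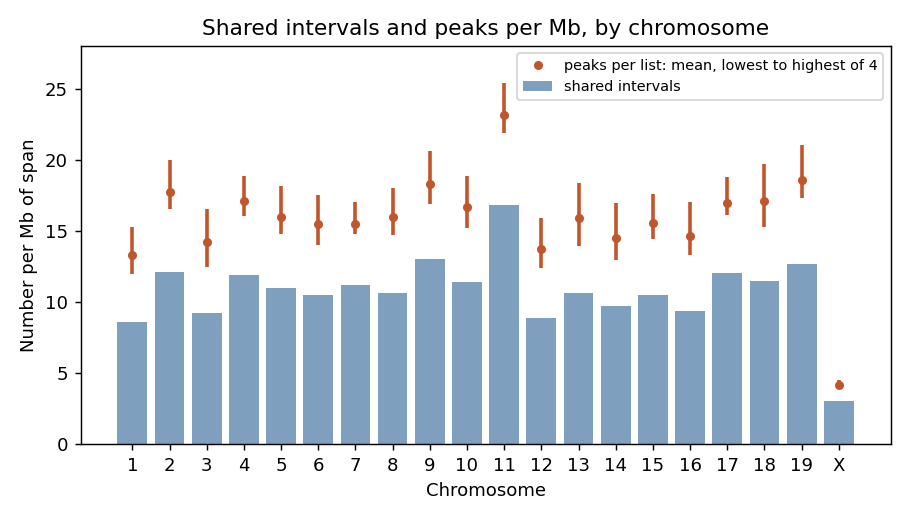
Shared intervals per Mb of span (bars) and peaks per Mb in the single lists (points, mean; lines, lowest to highest of 4 lists) for each autosome and chromosome X. Chromosome 11 is the densest at 16.8 shared intervals per Mb, and chromosome X is lowest at 3.05.

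Neighbouring shared intervals lay a median of 22691 bp apart, with quartiles of 5639 and 69571 bp over 26900 gaps. Long empty stretches were few but held much of the distance: 835 gaps of at least 500 kb were 3.10% of all gaps and 46.3% of the summed gap length. Of these, 367 were at least 1 Mb long. The longest, on chromosome X from 23271019 to 34090539, was 10.8 Mb, and the lists had 4, 3, 3 and 1 peaks inside it, none shared by all. A gap of 9.18 Mb on chromosome 15, from 13323909 to 22507480, held 6, 5, 3 and 11 peaks. Unmappable sequence and assembly gaps were not separated from mappable sequence without peaks.

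**Figure D5:**
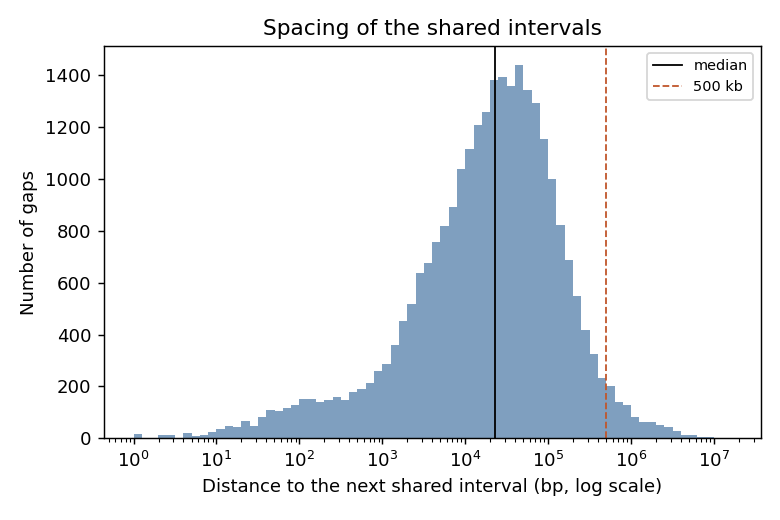
Number of gaps between neighbouring shared intervals by length in bp (log scale), with lines at the median of 22691 bp and at 500 kb. Most gaps are far below 500 kb, and 835 lie at or beyond it.

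The most isolated interval was on chromosome X from 83022067 to 83023101, 1035 bp wide and 4704 kb from its nearest neighbour. Its scores of 160, 187, 105 and 96.8 were ordinary, at a mean percentile of 51.4. Isolation also occurred among strong intervals: on chromosome X from 78315397 to 78318564 the scores were 1651, 1138, 1354 and 1721, at a mean percentile of 94.9, with the nearest neighbour 2486 kb away. Every list drew that region as a peak of 3249 to 4117 bp.

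At the opposite extreme, intervals crowded into groups. Joined across distances of up to 10 kb, they formed 17848 groups, of which 72.99% were single intervals and 492 had at least 5, holding 12.7% of all intervals. The largest by span was on chromosome 6 from 30521960 to 30690872, with 27 intervals over 168.9 kb and 62.7% of its length covered. Percentiles of its members ran from 30.1 to 99.2. A group on chromosome 11, from 98900689 to 99011799, also had 27 intervals, over 111.1 kb. With distances of up to 20 kb the chromosome 6 group grew to 40 intervals over 287.4 kb, from 30403488 to 30690872, and took in 2 of the 20 widest intervals.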

How the data were processed

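The 4 deposited lists of H3K27ac peaks, 1 per wild-type library, were used. Per the labels' protocols, chromatin of pooled forelimbs was fixed with formaldehyde and sonicated before precipitation. Per the submitters' processing notes, the build was mm9, MACS 1.4.2 and Bowtie 0.12.8 were used, and cutadapt 1.1, bcl2fastq 2.17 and CASAVA are also listed. Whether inputs served as controls in peak calling is not given in the sources used here. The deposited lists give a position and a score per peak, the score being the authors' value. Read counts are not part of them, which leaves depth unknown, and a missing peak shows only that no call was made.

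Intervals were found with Python 3.11.15, numpy 2.4.6 and pandas 2.3.3 as bases covered by all 4 lists, and the procedure was tested on simulated lists. Each interval took the score percentile of the peak it lay in. Regions were named by fixed ranks: the 20 strongest and 20 widest, the first 5 compact, weak, isolated or tag-dependent ones, the 5 largest gaps and the 5 largest groups joined at 10 kb. The 3 wide intervals without near neighbours, the unshared strong peak, the groups joined at 20 kb and the condition on compact intervals were singled out after their values were seen. Members and lists were chosen with earlier results of these data known. Genes were not assigned to regions, since the annotation at hand was of another build and coordinates were not converted. With 1 group, no comparison between groups was made and no p-value was computed. The libraries are of pooled tissue, so the spread between replicates may be technical.

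Alternatives were a minimum score of 100, lists of equal length, merged regions, intervals of at least 200 bp and neighbours within 1 kb joined. Autosomes only, lists of either tag and leaving out each replicate were also used. For the share of the strongest among the widest, strength was also taken as the lowest percentile or the mean score. Ranking scores of 3100 above all others was chosen after seeing the data.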

Additional observations from a re-analysis of the deposited data

Results flagged for a closer look

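Of 107 sets of 4 values examined, 15 had a list far from the other 3 by Dixon's criterion. For sets chosen without regard to their values chance gives about 1 in 20, but these regions were picked by extreme ranks of the same widths and percentiles, so that share does not apply and the values are a description. In peak width, the list that stood apart measured 18983 bp on chromosome 8 from 59790163, 8772 bp on chromosome 9 from 58002491, 17183 bp on chromosome 7 from 89860737 and 6972 bp on chromosome 17 from 35972889. It measured 19791 bp on chromosome 6 from 30487216, 25927 bp on chromosome 15 from 27706198 and 9212 bp on chromosome 3, at 2 slivers, from 96069382 and from 96069584, of a single peak. At the top of the score range a list stood apart with a percentile of 99.9961 on chromosome 13 from 23711493, 99.9871 on chromosome 17 from 17760369 and 99.9781 on chromosome 6 from 122289840. The same held for 99.9755 on chromosome 8 from 35866974 and 99.973 on chromosome 17 from 35972889. In these 5 replicate 3 alone scored above 3100. A score of 3100 stood at percentile 99.4282 in replicate 3 and at 99.1115 to 99.1601 in the other lists. At other intervals of the 20 strongest, a single list of another replicate scored above 3100, and those percentiles were not flagged. These 5 flags thus depend on the tie at 3100. Low percentiles stood apart at 84.6 on chromosome 2 from 33482441 and 13.1 on chromosome 13 from 60101409.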

How the results depend on the processing

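Of 100 values recomputed under alternatives, 79 were labelled the same and 21 moved. The spread over lists was the measure for covered length, median width, median percentile, median gap and the share of the strongest among the widest. Counts of intervals, wide intervals and long gaps had no such spread, so their labels were not set against the variation over lists. Counts labelled the same could still differ: the lists of the second tag gave 33709 intervals against 26921, and 106 of at least 10 kb against 78. With a minimum score of 100, 16646 intervals covering 41.0 Mb remained, with a median width of 2125 bp, a median percentile of 78.8, a median gap of 37246 bp and 26.3% of the strongest among the widest. Merged regions with a peak of every list covered 80.6 Mb, with a median width of 2786 bp, 328 of at least 10 kb, a median gap of 27537 bp and 26.0% of the strongest among the widest. Joining neighbours within 1 kb gave a median width of 1785 bp, 147 of at least 10 kb, a median gap of 28381 bp and 29.2%. Leaving out each replicate gave median gaps of 20964 to 22627 bp. The 2 lists of the first tag gave intervals of 1768 bp at the median, at percentile 59.2. Those of the second gave 69.3 Mb, a median percentile of 59.6 and a median gap of 18533 bp. Ranking scores of 3100 above all others gave 40.3% of the strongest among the widest and placed the 36 intervals above the tie below it. The cause of the moves beyond the alternatives' own construction was not tested. The share of intervals at transcription starts was not run. Depth is unknown, so the lists cannot show whether an unshared region lacked the mark.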
